A study of Homo sapiens with 2 samples.

Results

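The kallikrein-related peptidases KLK5, KLK6, KLK7, KLK8, KLK10, KLK11, KLK12, KLK13 and KLK14 were 9 of the 17687 genes named on the array, each read by 1 probe set, and were selected by gene symbol. The choice was made with earlier results of these arrays known, and the difference between the same arrays is described below, so the values of the 9 genes are a description and carry no test. They belong to a family of 15 tissue kallikreins, and the other family members (KLK1, KLK2, KLK3, KLK4, KLK9 and KLK15) are given beside them. Total RNA of MKN1 cells, a gastric cancer line of human origin grown in RPMI medium with serum, was measured on 2 Affymetrix arrays. One line overexpressed RHOA Y42C, a tyrosine-to-cysteine mutant of the small GTPase RHOA, and the other overexpressed wild-type RHOA, both from the pBABE vector under puromycin selection. Neither parental nor empty-vector cells are among the samples, the labels do not say whether the lines were clones or pools, and with 1 array per line no error between samples can be given.

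Tissue kallikreins are secreted serine proteases of the chymotrypsin fold, made as inactive zymogens and activated when a short propeptide is removed. Their genes lie side by side in a single cluster on chromosome 19. In stratified epithelium KLK5 and KLK7 cut the proteins that hold corneocytes together, and several kallikreins activate one another in a cascade that inhibitors such as SPINK5 restrain. KLK3, also called prostate-specific antigen, and KLK2 are androgen-driven products of the prostate, and several of the genes from KLK5 to KLK14 are expressed together in epithelial tumours.

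The members lie together in the genome, and the sequence before the start site is shown for some of them. These are members at least 2-fold higher whose farthest upstream start listed by RefSeq (GRCh38.p14) has its whole window outside the gene. Each run is the 250 bases before that start, 5′ to 3′ on the minus strand, the strand of these genes. Capitals mark matches, on either strand, to GGGCGG, the GC box of SP-family factors, or to GGAATG, the core bound by TEAD factors, the DNA-binding partners of YAP. KLK5 (chr19:50953039-50953288), KLK6 (chr19:50969592-50969841), KLK7 (chr19:50984065-50984314) and KLK14 (chr19:51084211-51084460) are shown because their deposited Y42C value was at least 2-fold the deposited wild-type value. KLK12 also had its whole window outside the gene but was under 2-fold, and its window, which held neither motif, is not shown. KLK9 (chr19:51009593-51009842), which lies between members in the cluster and is not one of them, is shown because its signal was below the expression minimum in both arrays.
KLK5: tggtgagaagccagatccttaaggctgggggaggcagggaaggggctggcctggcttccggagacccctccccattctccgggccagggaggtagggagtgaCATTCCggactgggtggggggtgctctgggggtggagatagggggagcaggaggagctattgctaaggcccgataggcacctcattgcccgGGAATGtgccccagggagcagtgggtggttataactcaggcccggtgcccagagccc
KLK6: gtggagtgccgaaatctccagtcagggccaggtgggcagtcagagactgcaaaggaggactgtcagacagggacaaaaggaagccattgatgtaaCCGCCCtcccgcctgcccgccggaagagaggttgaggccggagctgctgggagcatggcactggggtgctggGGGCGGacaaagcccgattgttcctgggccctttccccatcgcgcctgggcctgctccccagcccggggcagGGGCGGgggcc
KLK7: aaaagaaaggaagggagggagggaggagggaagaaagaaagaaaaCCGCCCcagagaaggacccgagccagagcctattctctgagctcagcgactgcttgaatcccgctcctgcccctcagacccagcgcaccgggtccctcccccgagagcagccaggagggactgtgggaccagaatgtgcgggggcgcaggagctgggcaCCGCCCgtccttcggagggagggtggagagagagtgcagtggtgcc
KLK14: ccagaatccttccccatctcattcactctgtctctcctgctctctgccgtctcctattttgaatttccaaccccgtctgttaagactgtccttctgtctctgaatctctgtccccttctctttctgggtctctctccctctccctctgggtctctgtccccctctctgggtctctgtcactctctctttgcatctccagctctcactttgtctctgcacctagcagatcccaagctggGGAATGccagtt
KLK9: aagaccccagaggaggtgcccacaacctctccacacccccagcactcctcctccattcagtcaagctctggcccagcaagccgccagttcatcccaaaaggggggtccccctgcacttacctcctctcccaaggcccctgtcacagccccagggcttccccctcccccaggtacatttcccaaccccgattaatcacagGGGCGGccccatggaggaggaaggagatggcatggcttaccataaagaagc

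The windows differed in the motifs they held. For each gene only the window of the farthest upstream start was counted, and shares are over the 27326 such windows of all genes. Of the 9 members, 8 had a window in the RefSeq table, and KLK8 is named only. GGAATG stood in 2 of the 8 members, KLK5 and KLK14, and in 2 of 5 other tissue kallikreins with a window, KLK2 and KLK3, against 12.0% of all windows. KLK5 held it 2 times, starting 148 and 57 bases before the start site. GGGCGG stood in 3 of the 8 members, KLK6, KLK7 and KLK13, and in 3 of the 5 others, KLK2, KLK3 and KLK9, against 42.2% of all windows. With every listed start counted, 5 of the 8 members held GGGCGG, KLK11 and KLK14 being the additional ones. The others stayed at 3 of the 5. Genes with more listed starts have more windows to match, and the share of all genes counted this way was not computed. TGANTCA, the AP-1 element, was in 0 of the 8 members and 0 of the 5 others (6.57% of all windows). The TATA box TATAAA was in 0 of the 8 members and in 3 of the 5 others, KLK2, KLK3 and KLK15 (11.2%). AGAACA, a half-site of steroid receptor elements, was in 0 of the 8 members and in 1 of the 5 others, KLK3 (12.4%). Whole elements were not searched for. No base of these windows was shared by matches to different motifs. A match is a run of letters, not a site known to be bound, and the lack of one says nothing about the factor.

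In the Y42C array 6 of the 9 members were at least 2-fold higher than in the wild-type array in the deposited values, and 0 were at least 2-fold lower. The 6 were KLK5, KLK6, KLK7, KLK10, KLK13 and KLK14. Of all 17687 genes, 5.52% were higher in the Y42C array by 2-fold or more and 6.76% lower by as much. Of the 11802 genes above an expression minimum, which 8 of the members passed, the shares were 7.46% and 9.80%. The minimum, set from olfactory receptor genes, was 5.14 on the log2 scale in the Y42C array and 5.17 in the wild-type array. It separates the members: 5 lay above it in both arrays (KLK6, KLK7, KLK8, KLK10 and KLK13), 3 only in the Y42C array (KLK5, KLK12 and KLK14), and KLK11 in neither. Members that passed it only through the Y42C array had to be higher there, so their folds are lower bounds. Of the 5 measured in both arrays, 4 were at least 2-fold higher. Among the 10946 genes above the minimum in both arrays, 755 passed 2-fold upward in the Y42C array and 1032 passed it downward. Fewer expressing cells and less RNA per cell cannot be told apart in RNA from whole cultures.

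**Figure D1:**
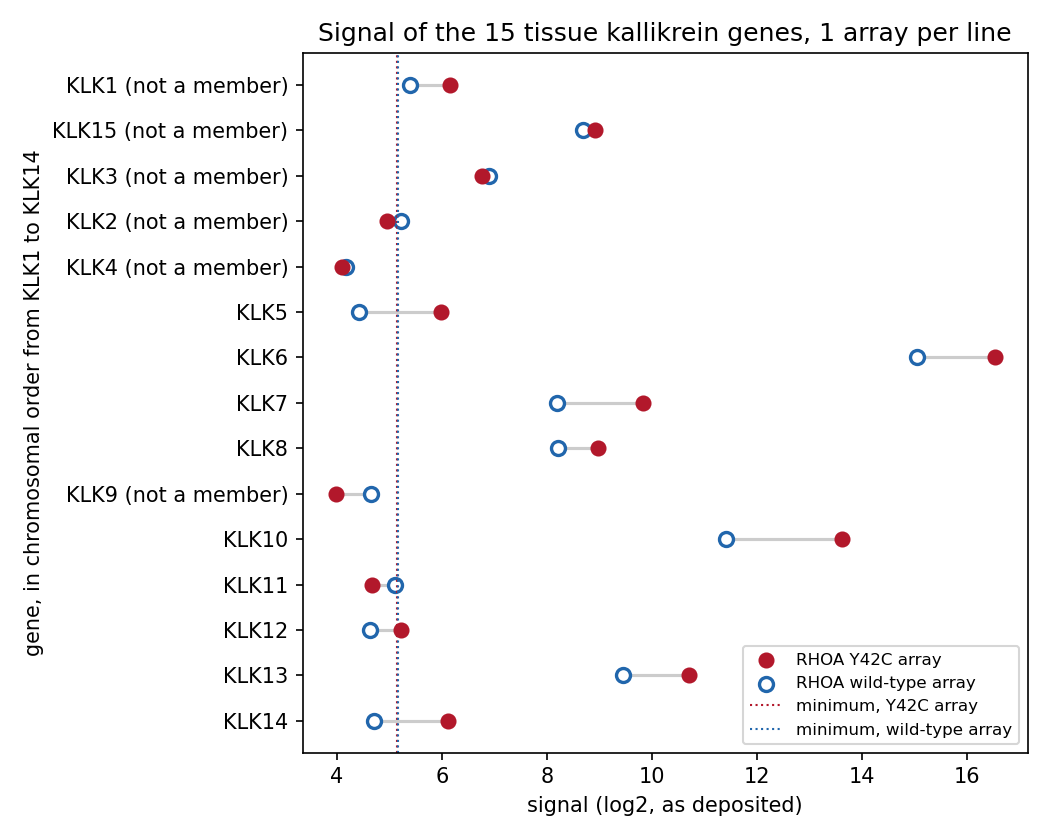
Log2 signal of the 15 tissue kallikrein genes in the Y42C array (filled red) and the wild-type array (open blue), 1 array per line, in chromosomal order, with the expression minimum of each array (5.14 and 5.17) as dotted lines. The filled point lies to the right of the open one for 8 of the 9 members, and KLK11 is the exception.

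KLK10, a kallikrein first described as a gene of normal breast epithelium that is silenced in breast cancer, had the largest difference of the 9. Its probe set (TC1900011233.hg.1) gave 13.63 in the Y42C array, against 11.41 in the wild-type array. The difference was 2.22 on the log2 scale, or 4.66-fold, and stood at rank 73 from the most positive among the 11802 genes. The 3 genes whose pair of log2 values lay nearest to that of KLK10 were EDIL3 (13.48 in Y42C and 11.60 in wild-type, distance 0.242), COL6A1 (13.28 in Y42C and 11.53 in wild-type, distance 0.370) and ST14 (13.38 in Y42C and 11.13 in wild-type, distance 0.375). Likeness here is the Euclidean distance over the 2 arrays.

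Of the proteases that act in the cornified layer, KLK7, the chymotrypsin-like enzyme that degrades corneodesmosomes, was the next member in size. KLK7 (TC1900011231.hg.1) gave 9.83 in the Y42C array, against 8.20 in the wild-type array, which is 3.10-fold higher. KLK5, a trypsin-like enzyme able to activate pro-KLK7 and itself, gave 5.98 in the Y42C array, against 4.42 in the wild-type array (TC1900011228.hg.1). Its deposited values differ by 1.56, and as the wild-type value is below the minimum the fold is at least 1.75. KLK14, a trypsin-like enzyme that cleaves the receptor PAR2 and activates other kallikreins, gave 6.12 in the Y42C array, against 4.71 in the wild-type array (TC1900011237.hg.1). It was at least 1.93-fold higher, with a difference of 1.41 in the deposited values. KLK7 was well above the minimum in both arrays, while KLK5 and KLK14 were close to it even in the Y42C array.

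KLK6 and KLK8 are also known from the nervous system, KLK6 as a protease of myelin proteins and KLK8, or neuropsin, in synaptic plasticity. KLK6 (TC1900011229.hg.1) gave 16.53 in the Y42C array, against 15.05 in the wild-type array, which is 2.79-fold higher. Both values are far above the minimum. KLK8 (TC1900012011.hg.1) gave 8.97 in the Y42C array, against 8.22 in the wild-type array, which is 1.68-fold higher. It was the 1 member measured in both arrays that did not pass 2-fold, and ranked 1525 among the 11802 genes, where KLK6 ranked 329.

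The members at the far end of the cluster differed among themselves. KLK13, a trypsin-like enzyme of squamous epithelia, gave 10.70 in the Y42C array, against 9.45 in the wild-type array (TC1900011236.hg.1). It was 2.38-fold higher, the smallest difference among the members past 2-fold (1.25). KLK12, a trypsin-like enzyme, gave 5.22 in the Y42C array, against 4.63 in the wild-type array (TC1900011235.hg.1), which is at least 1.03-fold higher. Its Y42C value lay just above the minimum, and its deposited difference of 0.59 was under 2-fold, as was that of KLK8 (0.75). KLK11, also called hippostasin, gave 4.66 in the Y42C array, against 5.11 in the wild-type array (TC1900011234.hg.1). Both values are below the minimum, so no fold is given, and KLK11 was the only member of the 9 with a negative difference (-0.45).

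Among the genes above the minimum, the share at least 2-fold higher was close to even over the range of signal. Over a mean signal of 10 on the log2 scale it was 7.34%, and all 3 members there were past 2-fold (KLK6, KLK10 and KLK13). Between 7 and 10 it was 8.04%, and 1 of the 2 members there passed (KLK7, not KLK8). Under 7 it was 6.84%. The members there, KLK5, KLK12 and KLK14, reached the minimum only in the Y42C array and have bounds under 2-fold, so nothing is read from their count. The median difference of all 9 members was 1.41, that of the 8 above the minimum 1.44 and that of the 5 measured in both arrays 1.48. The same medians over all genes were -0.02, -0.07 and -0.08. Since the 9 genes were chosen with these values known, the contrast describes them and is no evidence of its own.

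**Figure D2:**
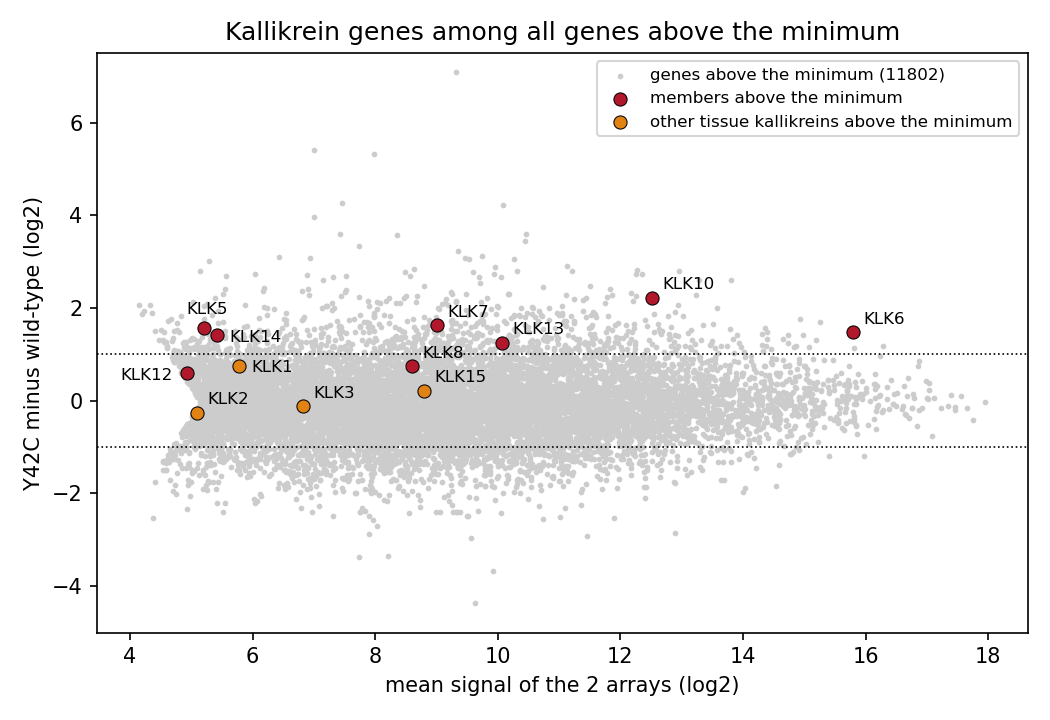
Difference between the Y42C and the wild-type array against the mean signal of the 2 arrays (both log2) for the 11802 genes above the minimum, with the 8 members (red) and 4 other tissue kallikreins (orange) that pass it, and dotted lines at 2-fold. Of the 6 members past the upper line, KLK5 and KLK14 lie at the left, with a wild-type value below the minimum, and KLK7, KLK13, KLK10 and KLK6 at higher signal.

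The remaining tissue kallikreins showed smaller differences, and 0 of the 6 were 2-fold apart. KLK1, the true tissue kallikrein that releases kinins, gave 6.15 in the Y42C array, against 5.40 in the wild-type array (1.68-fold higher). KLK15 gave 8.91 in Y42C and 8.69 in wild-type, and KLK3 6.77 in Y42C and 6.89 in wild-type, with differences of 0.22 and -0.12. KLK2 gave 4.96 in Y42C, below the minimum, and 5.22 in wild-type. KLK4, a protease of enamel formation, gave 4.10 in Y42C and 4.17 in wild-type, and KLK9 3.98 in Y42C and 4.65 in wild-type, all 4 values being below the minimum. The median difference of the 6 was -0.10. The sequences of family members are related, and whether probes read more than 1 of them was not tested.

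In the order of the genes along chromosome 19, the members at least 2-fold higher in the deposited values stood in 3 runs. These were KLK5, KLK6 and KLK7, then KLK10, then KLK13 and KLK14. KLK5 and KLK14 were below the minimum in the wild-type array, so their folds are only at least 1.75 and 1.93. KLK8 and KLK9 lay between KLK7 and KLK10, and KLK11 and KLK12 between KLK10 and KLK13. KLK4, next to KLK5 on the other side, differed by -0.07. Of the 10 genes with a value beyond KLK1, 3 were above the minimum and 0 were 2-fold apart. The largest difference there was that of JOSD2, the farthest of the 10 from KLK1 (8.08 in Y42C and 7.13 in wild-type). Of the 10 beyond KLK14, 6 were above the minimum and 1 passed 2-fold in the deposited values, SIGLECL1 (5.39 in Y42C and 4.03 in wild-type, at least 1.16-fold). CTU1, the gene next to KLK14, differed by -0.31. The gene order is that of the RefSeq table for GRCh38.p14.

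**Figure D3:**
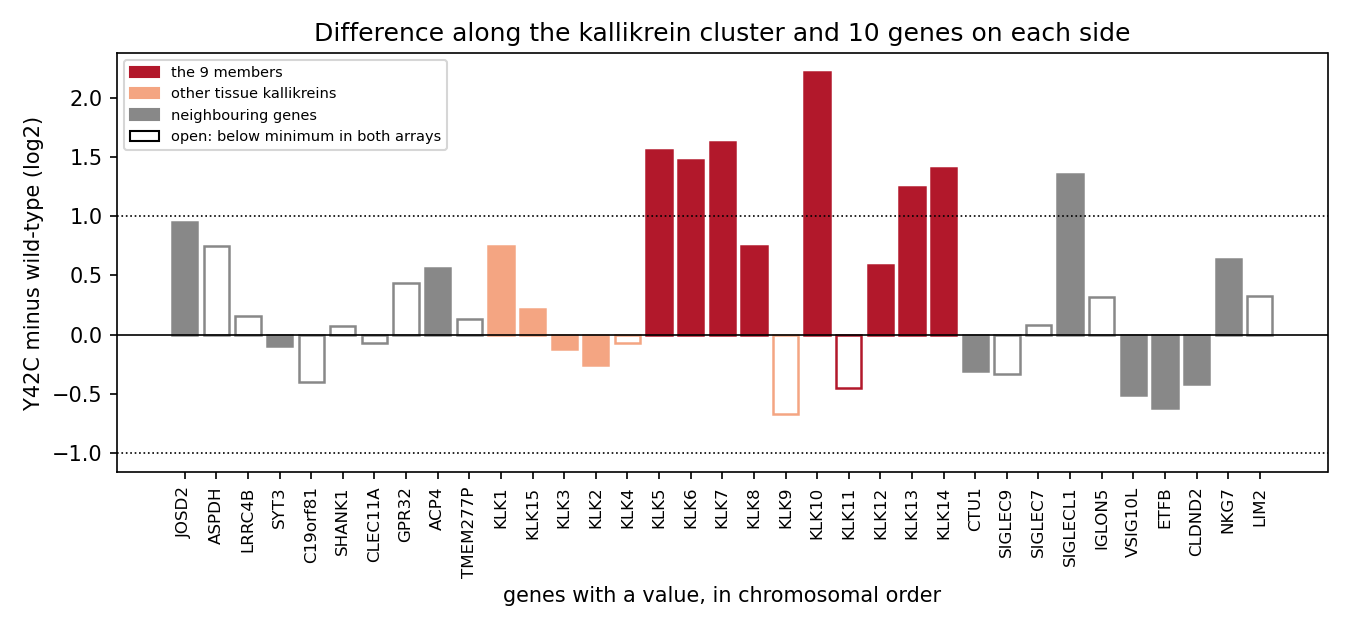
Difference between the Y42C and the wild-type array (log2) for the 15 tissue kallikreins and the 10 genes with a value on each side, in chromosomal order, with dotted lines at 2-fold and open bars for genes below the minimum in both arrays. The tall bars are those of KLK5, KLK6, KLK7, KLK10, KLK13, KLK14 and the neighbour SIGLECL1, and the bars of KLK9 and KLK11 between them point down.

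Inhibitors of kallikreins differed in both directions. Of 11 listed, 10 were named on the array, 4 were above the minimum, 1 was at least 2-fold higher and 1 lower. Of all 11802 genes above the minimum, 7.46% were higher and 9.80% lower by as much. PI3, or elafin, an inhibitor of elastase also reported to act on KLK7, gave 15.10 in the Y42C array, against 12.50 in the wild-type array (6.06-fold higher). SLPI, its relative in the WAP family, gave 12.00 in the Y42C array, against 13.78 in the wild-type array (3.43-fold lower). SERPINA1 was at least 1.70-fold lower (4.95 in Y42C and 5.90 in wild-type), and SERPINA3, an inhibitor of KLK3, gave 5.25 in Y42C and 5.12 in wild-type. SPINK6 and SPINK9, relatives of SPINK5 that inhibit KLK5 in skin, were below the minimum in both arrays, and SPINK5 was not analysed here. Of the 2 kallikrein inhibitors measured in both arrays, PI3 and SLPI, 1 was higher and 1 lower in the Y42C line.

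Proteases that activate kallikreins or share their cascades had 5 of 10 members above the minimum, with 2 at least 2-fold higher and 1 lower. The shares over all genes above the minimum were 7.46% and 9.80%. PLAU, the urokinase that makes plasmin, gave 9.91 in the Y42C array, against 7.21 in the wild-type array (6.50-fold higher). ST14, or matriptase, named above for its likeness to KLK10, was 4.76-fold higher, and PRSS8, the prostasin that matriptase activates, was 3.97-fold lower (6.94 in Y42C and 8.93 in wild-type). CTSC, the cathepsin that can process pro-KLK4, gave 11.08 in Y42C and 12.05 in wild-type, and PLAT 14.35 in Y42C and 14.28 in wild-type. Meprins MEP1A and MEP1B, which activate several kallikreins, were below the minimum in both arrays.

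Reported substrates and receptors of kallikreins had 13 of 21 named members above the minimum, with a median difference of -0.21. In the deposited values 3 of the 13 were higher by 2-fold or more and 2 lower. The shares over all genes above the minimum were 7.46% and 9.80%. Of the 11 above the minimum in both arrays, 3 were higher by 2-fold or more and 1 lower. The 3 were FN1, the matrix protein fibronectin (12.60 in Y42C and 9.81 in wild-type), DSC2, a desmosomal cadherin (9.62 in Y42C and 7.37 in wild-type), and FLG, the filaggrin of the granular layer (10.38 in Y42C and 8.26 in wild-type). DSG2, the partner cadherin of DSC2, was 3.07-fold lower (10.09 in Y42C and 11.71 in wild-type), and DSG1, a substrate of KLK5, at least 1.36-fold lower (4.12 in Y42C and 5.58 in wild-type). The thrombin receptor F2R, or PAR1, gave 5.66 in Y42C and 6.65 in wild-type, and F2RL3, or PAR4, 9.71 in Y42C and 10.08 in wild-type. BDKRB2, the kinin receptor, gave 5.23 in Y42C and 4.40 in wild-type. F2RL1, CDSN and EPHB2 were not analysed here.

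Nuclear receptors that regulate kallikrein genes in hormone-responsive tissues were mostly dim. NR3C1, the glucocorticoid receptor, gave 10.53 in the Y42C array, against 10.33 in the wild-type array, and VDR, the vitamin D receptor, gave 8.74 in Y42C and 9.11 in wild-type. ESR1, ESR2 and PGR were below the minimum in both arrays, and 0 of the 5 named receptors were 2-fold apart above it.

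**Figure D4:**
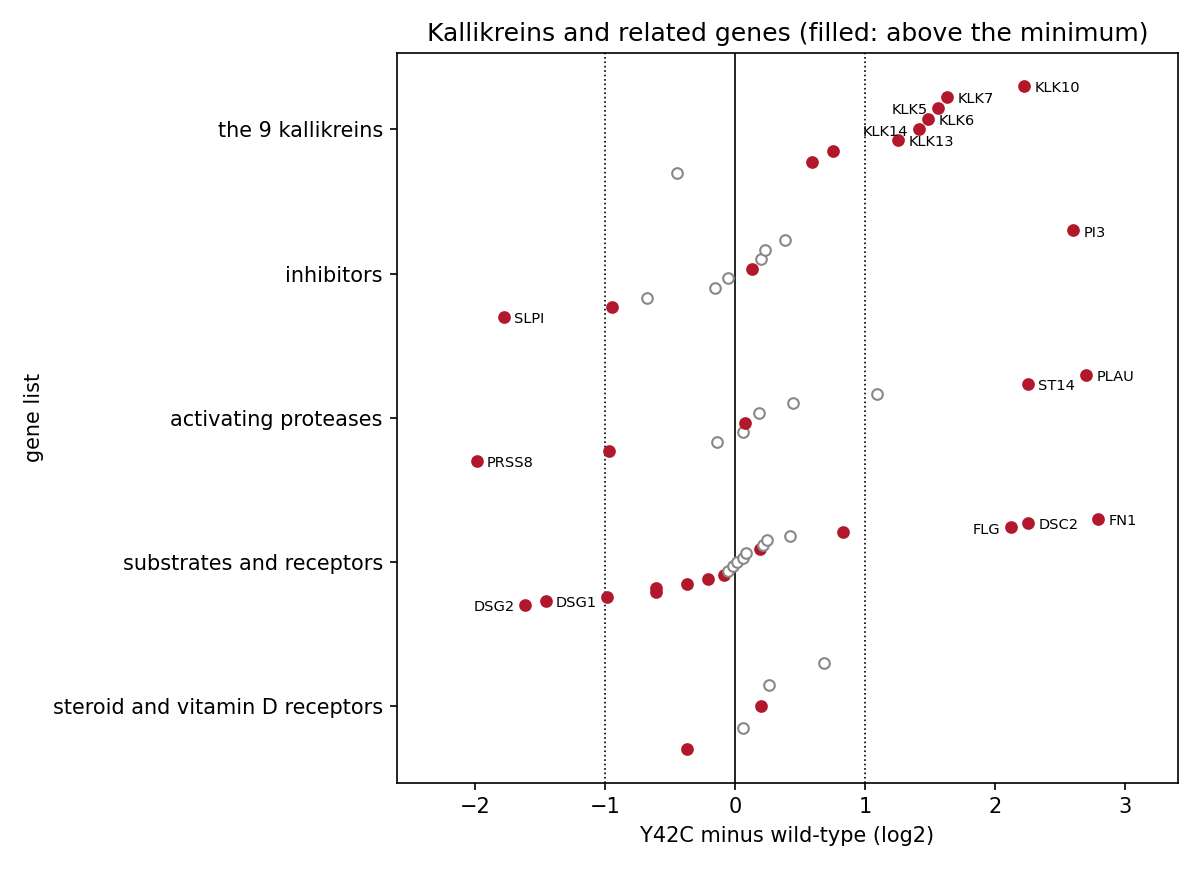
Difference between the Y42C and the wild-type array (log2) for each named gene of 5 lists, 1 point per gene, filled where at least 1 array reached the minimum, with gene names for filled points past the dotted lines at 2-fold. The kallikreins past 2-fold all lie on the right, and the inhibitors, activating proteases and substrates have filled points past both lines.

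RHOA gave 16.30 in the Y42C array and 16.47 in the wild-type array, which does not check the labels because both lines carry a RHOA vector. Of 5 epithelial markers KRT8, KRT18, KRT19 and EPCAM were above the minimum in both arrays with differences between -0.21 and 0.23, and CDH1, the epithelial cadherin, was below it in both. The squamous keratins KRT5 and KRT14 were above it in both arrays and differed by -0.66 and 0.20. All 3 fibroblast markers were below it in both. Of the 3 endothelial markers, PECAM1 and VWF were above it in both arrays, with differences of -0.07 and 0.80, and CDH5 was below it in both. Of the leukocyte markers, CD14 was above it in both (5.67 in Y42C and 7.45 in wild-type), and PTPRC (5.39 in Y42C and 4.61 in wild-type) and CD3E (5.67 in Y42C and 4.70 in wild-type) only in the Y42C array. The part of these markers in the kallikrein values was not tested.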

How the data were processed

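The deposited table lists 21448 probe sets with a value for either array, which the authors made with Affymetrix Expression Console, per the submitters' processing notes. For its version, background correction, summary and normalization, the sources used here say nothing. The deposited values, between 2.23 and 18.16, were taken as log2 signal from their range, and each fold assumes this. The array medians were 6.36 (Y42C) and 6.42 (wild-type). The platform annotation named 17709 probe sets, and probe sets of 1 gene were averaged, giving 17687 genes. A gene was above the minimum when its signal on either array was no lower than the 95th percentile of 349 olfactory receptor genes there. Where the dimmer array was below its minimum, the fold is the brighter value over that minimum. Differences are Y42C minus wild-type. With 1 array per line no test was made, and precision is limited by that number.

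Members, lists and thresholds were chosen with earlier results of these data known. Named were all tissue kallikreins and, of each list, members past 2-fold and those at its ends, and further list members and neighbouring genes after their values were seen. Upstream windows and the gene order came from RefSeq tables of GRCh38.p14, since the files name no build, and motifs were matched as letters. Scripts were tested on simulated data. The software was matplotlib 3.10.9, statsmodels 0.14.6, NumPy 2.4.6 and pandas 2.3.3 in Python 3.11.15.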

Additional observations from a re-analysis of the deposited data

How the results depend on the processing

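The 6 members past 2-fold in the deposited values remained the same 6 after the arrays were centred or quantile-normalized. Of all genes tested, 8.73% and 8.40% were then higher by as much. The same 6 passed after a trend on level was removed and with 16 added to the linear value (9.1% and 6.19% of all genes tested). They were also the same 6 with no minimum and with the brightest probe set of each gene (5.52% and 7.47% of all genes tested). Neither of these settings could drop a member. Removing the minimum changes no value, and each member has 1 probe set. The count was 4 (KLK6, KLK7, KLK10 and KLK13) of the 5 members above the minimum with the array median or the 99th percentile of olfactory receptor genes as minimum, where 7.92% and 7.48% of all genes tested were higher. It was the same 4, of 8, when lower values were raised to the minimum (6.68% of all genes above the minimum). KLK5 was then at 0.81 and KLK14 at 0.95. At 1.5-fold the count was 8 and at 3-fold it was 2 (KLK7 and KLK10), where 17.8% and 2.20% of all genes above the minimum were higher. The count of members lower by the threshold in use was 0 under all 11 alternatives. The share of all genes tested that were lower ran from 1.99% (at 3-fold) to 23.4% (at 1.5-fold). The median of the members above the minimum lay between 1.099 and 1.505 over 9 alternatives and the values as reported, and KLK10 between 2.21 and 2.28. No called member changed sign. No replicate could be left out and no paired analysis was possible because each line has 1 array. The values of KLK5, KLK12 and KLK14 are limited by their closeness to the minimum.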
